A study of Mus musculus with 22 samples.

Results

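A set of 8 genes of glucocorticoid signalling was followed through the open chromatin of mouse epididymal adipocytes: the receptors Nr3c1 and Nr3c2, the cortisone-activating enzyme Hsd11b1, the receptor co-chaperone Fkbp5, the transcription factors Zbtb16 and Klf9, the kinase Sgk1 and the glutamine synthetase Glul. They were picked by name, with no measured value in the rule but with earlier results of these data known, and are 8 of the 21938 protein-coding genes whose loci were measured. A locus is the gene with 20 kb added on each side, and the 8 loci held 56 of the 104657 regions in which any library had a peak. The data are ATAC-seq peak lists of 22 libraries, each from the nuclei of 1 mouse, and they measure how open the chromatin was, not how much of a gene was transcribed.

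Glucocorticoids enter the cell and bind the glucocorticoid receptor, encoded by Nr3c1, which sits in the cytoplasm with heat shock proteins and moves to the nucleus when it holds a ligand. There it binds short palindromic response elements and switches on target genes, among them genes that restrain the signal, such as Fkbp5. In fat, glucocorticoids act on adipocyte formation, lipid handling and insulin response, and the enzyme made from Hsd11b1 raises the active hormone inside the cell.

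All mice carried AdipoERCre x NuTRAP on a background the labels give as C576BL6, a tamoxifen-inducible Cre driven in adipocytes with a reporter that marks the nuclei of recombined cells, and all received tamoxifen. In the short arm, C (n = 3) were mice kept on chow and 18 weeks old, and H (n = 3), of the same age, had spent 12 weeks on a high-fat diet. HC (n = 3) had the same 12 weeks followed by 8 weeks of chow and were 26 weeks old, as were their controls CC_s (n = 3). In the long arm, CC_l (n = 2) and HH (n = 3) were 31 weeks old, HH after 25 weeks of high-fat diet. CCC (n = 2) and HHC (n = 3) were 39 weeks old, HHC having had the high-fat diet for 25 weeks and then chow for 8. The study's methods name another chow for those last 8 weeks, given to the controls too, so the later controls are set apart from the earlier ones by chow as well as age. This gives 10 control, 6 obese and 6 weight-loss libraries. The arms differ in age and length of diet at once, and these cannot be told apart.

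The peak lists held 40528 to 60523 peaks and covered 128 to 299 Mb, and they carry no read counts, so the depth of a library is unknown. HC 3 and HHC 3 stood apart, with a median peak maximum of 17 and 18 against 30 to 107 in the other libraries. The median peak maximum divided by the smallest one, a measure of how far peaks rose above the lowest peak of their library, was 6.82 to 8.92 in C and 4.70 to 6.40 in H, without overlap. It was 7.30 to 7.42 in CC_s and 2.43 to 6.50 in HC, also without overlap. In the long arm it overlapped, at 4.67 to 7.30 in CC_l and 3.75 to 6.20 in HH, and at 3.67 to 8.20 in CCC and 2.25 to 6.42 in HHC. All 10 adipocyte markers had a promoter peak in every library, and their share of all promoter signal was 0.439% to 0.728% in C, 0.560% to 0.765% in H, 0.542% to 0.627% in CC_s and 0.640% to 0.661% in CC_l. It ran from 0.120% to 0.771% in HC, 0.181% to 0.816% in HH, 0.233% to 0.751% in CCC and 0.0717% to 0.627% in HHC. Of 10 macrophage markers 2 to 4 had one in the control libraries, 3 to 5 in H and in HC, 2 to 5 in HH and 3 to 7 in HHC. Their share of promoter signal ran the other way in the short arm, from 0.0179% to 0.0383% in C against 0.00969% to 0.0170% in H, and from 0.0175% to 0.0358% in CC_s against 0.00905% to 0.0141% in HC. The promoters of Adgre1, Ptprc, Mrc1, Itgam, Tyrobp and Fcgr1 had none in any control library, and that of Fcgr1 none in any library. Of 8 endothelial markers 1 to 3 had a promoter peak in the controls, H and HC, 1 to 8 in HH and 1 to 5 in HHC. Of 5 mesothelial markers 2 to 4 had a promoter peak in C and 0 to 1 in H, 2 in CC_l and 0 to 1 in HH, 2 to 3 in CC_s and in HC, and 1 to 3 in CCC against 2 to 5 in HHC. Of 6 progenitor markers 2 to 6 had one in the control groups, H, HC and HH, and 5 in every HHC library, and of 6 lymphocyte markers 0 to 2 in any library. The part of these differences in the results below was not tested, and in bulk nuclei a change in open chromatin per cell cannot be told apart from a change in the mix of cells.

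The 8 loci ranged from nearly closed to among the most open in the genome. Zbtb16 (chr9:48654297-48836222, GRCm38) lay in a single stretch of 204488 bp that had peaks in every library, and a median of 86.1% of its locus was under peaks, at the 99.6th percentile of all gene loci. Glul (chr1:153899944-153909723) had 62.2% under peaks, Hsd11b1 (chr1:193221634-193264075) 54.4%, Klf9 (chr19:23141226-23168134) 46.1%, Fkbp5 (chr17:28399094-28517527) 45.3% and Nr3c1 (chr18:39410545-39519421) 38.7%. Sgk1 (chr10:21882184-21999903) had 9.80% and Nr3c2 (chr8:76899442-77245012) 3.17%, against a median of 10.6% over all gene loci. Per length, the median total signal was highest at Glul, with 15848 units of summed coverage per kb, and at Zbtb16, with 15791, and lowest at Nr3c2, with 678. These values are per-kb levels over 22 libraries and are not scaled between libraries.

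**Figure D1:**
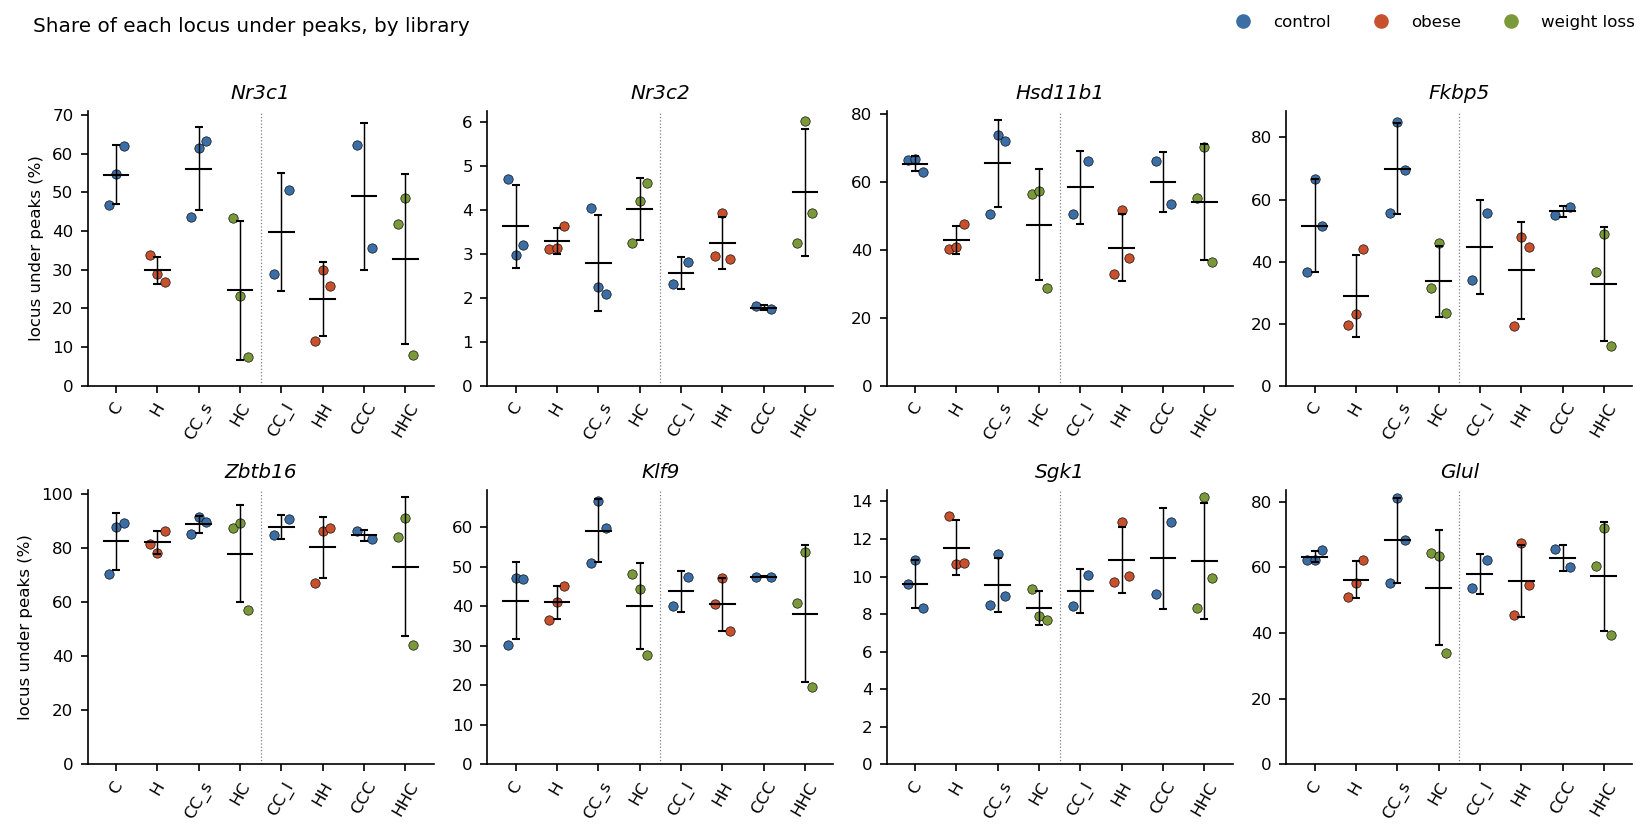
Share of each of the 8 loci under peaks (%) in each of the 22 libraries, by group, with controls in blue, obese groups in red and weight-loss groups in green; lines and bars give the mean and SD of a group, and the dotted line divides the short from the long arm. For Nr3c1 and for Hsd11b1 the 3 H libraries lie under the 3 C libraries, and HC 3 and HHC 3 give the lowest values of Nr3c1, Zbtb16, Klf9 and Glul.

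All 8 genes had a promoter peak, a peak within 2000 bp of a start in the GENCODE basic annotation, in 22 of 22 libraries. Of the 56 regions, 12 had peaks in all libraries (21.4%, against 11.8% of all regions), and 10 of these 12 lay over a promoter. A further 22 had a peak in a single library, and 13 of those lay at Nr3c2, whose locus of 386 kb held 22 regions. At Nr3c2, a single region, over the promoter (chr8:76896582-76905929), had peaks in every library.

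The letters of the glucocorticoid response element were searched in the loci in a long and a short form: the full palindrome, AGAACA and TGTTCT with 3 bases of any kind between them, and the shorter core, GNACA and TGTNC at the same spacing, which contains it (N is any base). Both read the same on either strand, and a match is a match of letters and not a bound site. The genome (GRCm38) held 639 full matches, and 448 of the 21938 gene loci, 2.04%, held at least 1. Among the 8 genes, Fkbp5 held 2 and Sgk1 held 1, and the other 6 held none. With the bases around them (GRCm38, strand of the gene), they are printed because they are the only full matches at these loci, and the capitals mark the match.
Fkbp5 intron, chr17:28420281-28420375, minus strand: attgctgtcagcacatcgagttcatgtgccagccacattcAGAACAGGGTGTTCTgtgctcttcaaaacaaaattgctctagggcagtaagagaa
Fkbp5 near a start, chr17:28442379-28442473, minus strand: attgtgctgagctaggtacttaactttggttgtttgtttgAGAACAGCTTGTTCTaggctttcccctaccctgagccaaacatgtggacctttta
Sgk1 near a start, chr10:21993661-21993755, plus strand: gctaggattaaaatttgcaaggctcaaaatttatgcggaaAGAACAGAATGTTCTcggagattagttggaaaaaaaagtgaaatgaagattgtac

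The Sgk1 match (chr10:21993701-21993715) lay at -182 bp from an annotated start, inside an intron of longer transcripts, and was under a peak in 22 of 22 libraries. The Fkbp5 match at chr17:28420321-28420335, in an intron, was also under a peak in 22 of 22. Over the genome 20 of the 639 full matches, 3.13%, were under peaks in all libraries. The other Fkbp5 match, at chr17:28442419-28442433, lay at -712 bp from a start that a shorter transcript uses. It was under a peak in 10 of 10 control libraries, in 3 of 6 obese libraries and in 3 of 6 weight-loss libraries. In H and in HC it was under a peak in 1 of 3 libraries, and in HH and HHC in 2 of 3. These counts come from peak calls with a limit set in each library and were not tested.

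The core had 37 matches at the 8 loci, of which 16 (43.2%) were under peaks in every library and 8 in none, against 1.76% of the 44933 core matches of the genome in every library. In steps of 1 kb, 122 of the 1274 steps of these loci (9.58%) were under peaks in every library, and the difference between these shares was not tested. Fkbp5 held 12 core matches, or 7.57 per 100 kb against 1.77 per 100 kb over all gene loci, and 5 of the 12 were under peaks in every library. Zbtb16 held 7, and all 7 were under peaks in 22 of 22 libraries, as were 66 of its 222 steps of 1 kb. Sgk1 held 5 with 1 under peaks throughout, Glul 3 with 1, and Hsd11b1 and Klf9 1 each, under peaks throughout. Nr3c2 held 6 and Nr3c1 2, and none of these was under peaks in more than 2 libraries. In the RefSeq promoter windows of 300 bp (GRCm38), the core was in 156 of 32851 windows, 0.475%, and in 1 of the 11 windows of these genes, a window of Sgk1.

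To compare libraries, the total signal of each locus was put on a common log2 scale by rank. A difference of 1 is a doubling on that scale and not of the signal measured in a library. Nr3c1, the gene of the glucocorticoid receptor itself, had less open chromatin in H than in C. Its locus signal was 19.64, 19.40 and 19.71 in C, and 19.11, 18.90 and 19.01 in H. The 3 H libraries lay below the 3 C libraries, as did those of 19.5% of all loci. The difference of -0.58 (SE 0.113) passed the test (limma, adjusted p = 0.0167 over 17046 loci). In H against C, 2 of the 8 genes passed, both lower, where 15.5% of all loci passed and 6.98% passed as lower. By covered length the difference was -0.69 (limma, adjusted p = 0.0199, where 3.69% of loci passed), from a covered share of 46.8%, 54.7% and 62.1% in C to 33.7%, 28.9% and 26.9% in H. Relative to the mean coverage of all loci in the same library, the Nr3c1 locus was 3.22 to 3.33 times as covered in C and 1.87 to 2.17 times in H, again without overlap.

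The same measure in the long arm was 2.32 and 3.34 in CC_l and 1.25 to 2.02 in HH. The locus signal of Nr3c1 was 19.09 and 19.58 in CC_l and 18.57, 19.09 and 19.01 in HH. The highest HH value lay just under the lower CC_l value, as in 18.1% of loci, and the difference of -0.45 (SE 0.217) did not pass (limma, adjusted p = 0.452). It was -0.69 without CC_l 1, -0.20 without CC_l 2 and -0.29 without HH 1. Over both arms the obese difference was -0.51 (SE 0.213, limma adjusted p = 0.134). After weight loss HC gave 19.23, 18.81 and 18.16 against 19.37, 19.40 and 19.75 in CC_s, a difference of -0.78 (limma, adjusted p = 0.401) without overlap, as lower in 10.5% of loci, and 0% of loci passed in this pair. The ratio of median to lowest peak maximum also did not overlap in H against C and in HC against CC_s, and its part in the differences of those pairs was not tested. HHC gave 19.57, 19.35 and 18.30 against 19.83 and 19.47 in CCC, which overlapped. The weight-loss difference over both arms was -0.68 (SE 0.212, limma adjusted p = 0.0825). Without HC 3 and HHC 3 it was -0.34 (adjusted p = 0.209), and those libraries held 18.16 and 18.30, the lowest Nr3c1 values of all. By the highest peak in the locus the weight-loss difference turned to 0.14 (adjusted p = 0.573).

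The signal of peaks at the annotated starts overlapped between H and C. This promoter signal of Nr3c1 was 18.68, 18.14 and 18.47 in C and 18.13, 18.16 and 18.39 in H. The widest region, over internal starts and most of the body (chr18:39402786-39493359) differed by -0.48 in H against C (limma, adjusted p = 0.0245 over 30840 regions, where 16.8% of regions had an adjusted p under 0.05). A region upstream of the gene (chr18:39524397-39529295) had 15.16, 14.54 and 14.56 in C, and all 3 H libraries were at 14.01, the floor of the scale for regions. It entered the test through C alone, so its values are given with no test. Other controls were also low, with 14.01, 14.02 and 14.40 in CC_s and 14.09 and 14.01 in CC_l, but CCC had 14.81 and 14.64. HH had 14.09, 14.01 and 14.01, HC was at the floor, and HHC had 14.63, 14.01 and 14.01. By total signal, the H against C difference of Nr3c1 was -0.53 without H 2 (adjusted p = 0.0675). By the highest peak in the locus it was -0.02 (adjusted p = 0.961).

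Nr3c2 encodes the mineralocorticoid receptor, which also binds glucocorticoids, and a single region of its locus, over the promoter, was open in every library. Its locus signal was 17.73, 17.78 and 18.02 in H and 18.25, 17.76 and 17.60 in C, which overlapped, with a difference of -0.02 (SE 0.191). In the long arm it was 18.23, 18.04 and 17.94 in HH and 17.76 and 17.66 in CC_l. The HH values lay above both controls, as in 14.7% of loci, but the difference of 0.36 did not pass (limma, adjusted p = 0.461). After weight loss HC had 17.92, 17.98 and 18.78 against 18.18, 17.17 and 17.24 in CC_s, and HHC had 17.78, 18.02 and 18.65 against 17.49 and 17.17 in CCC, above both as in 10.9% of loci. The highest values were those of HC 3 and HHC 3. Over both arms the weight-loss difference was 0.75 (SE 0.214, limma adjusted p = 0.062), and without HC 3 and HHC 3 it was 0.49 (adjusted p = 0.176). It was called without CC_s 1 (0.92, adjusted p = 0.0122) or without HHC 1 (0.85, adjusted p = 0.0358). By the highest peak in the locus it was 0.16 (adjusted p = 0.482), with the 20000 strongest peaks 0.35 (adjusted p = 0.27), and by covered length 1.24 (adjusted p = 0.0725). An intron region 234 kb into the gene (chr8:77130891-77135482) had 14.86, 14.45 and 14.84 in H against 14.05, 14.01 and 14.01 in C. All 3 H libraries and 1 C library had a peak there, but so did all 3 CC_s libraries. Another, 73.0 kb in (chr8:76969545-76975287), had 14.52, 15.31 and 14.78 in H against 14.12, 14.01 and 14.01 in C, and its peak was called in all 3 H libraries and in 2 of C. In both regions 2 of 3 C libraries were at the floor and H was the group that brought them into the test, so no test is given.

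Hsd11b1, the enzyme that turns inactive 11-keto glucocorticoids into active ones, had less open chromatin in both obese groups. The locus signal was 20.08, 19.99 and 19.84 in C and 19.20, 19.18 and 19.44 in H, and every H library lay below every C library, as in 19.5% of loci. The difference was -0.70 (SE 0.106, limma adjusted p = 0.00842), where 15.5% of loci passed and 6.98% passed as lower. In the long arm it was 19.75 and 19.82 in CC_l and 19.36, 19.51 and 19.33 in HH, without overlap, as in 18.1% of loci, a difference of -0.38 that did not pass on its own (SE 0.111, limma adjusted p = 0.223, where 0.0521% of loci passed). With both arms in 1 fit the obese difference was -0.54 (SE 0.0735, limma adjusted p = 0.000337), and Hsd11b1 was the 1 gene of the 8 that passed, where 10.8% of loci passed and 5.26% passed as lower. Leaving out each of the 11 libraries in turn gave -0.58 to -0.51 with adjusted p from 0.000258 to 0.00353. The difference between the arms was 0.31 (SE 0.147, limma adjusted p = 1).

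In the weight-loss groups Hsd11b1 was nearer to its controls. HC had 19.62, 19.67 and 19.60 against 19.68, 19.81 and 19.83 in CC_s, without overlap, as in 10.5% of loci, a difference of -0.14. HHC had 19.79, 19.65 and 19.51 against 19.87 and 19.70 in CCC, which overlapped. Over both arms the difference was -0.14 (SE 0.0737, limma adjusted p = 0.254), and none of the 8 genes passed, where 3.18% of loci did. By unadjusted p under 0.05 3 genes passed in this contrast, where 23.1% of loci did. The weight-loss difference minus the obese difference, a contrast added after the values were seen, was 0.40 for Hsd11b1 (SE 0.103, limma adjusted p = 0.144), where 0.0805% of loci passed. It did not pass over all loci.

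The Hsd11b1 locus also holds G0s2, Lamb3 and Traf3ip3, and the region that covers its promoters (chr1:193221978-193344637) covers those of G0s2 and Lamb3 as well. That region differed by -0.84 in H against C (SE 0.114, limma adjusted p = 0.00684), where 16.8% of regions had an adjusted p under 0.05. With the gene span alone, which leaves out the flanks, the difference of Hsd11b1 was -1.18 in H against C (adjusted p = 0.0121) and -0.90 over both arms (adjusted p = 0.00328). A region downstream of Hsd11b1 (chr1:193205443-193211885) covers a promoter of Lamb3 too, so leaving out the flanks need not remove Lamb3 from the span. Within the gene, the 3 steps from 24.9 to 26.9 kb after the gene start were under a peak in 8 to 10 of 10 control libraries, in 0 of 6 obese libraries and in 1 to 3 of 6 weight-loss libraries, a stretch singled out after its values were seen. Of 44 steps of this locus with a peak in 8 or more controls, 6 (13.6%) had one in at most 1 obese library. At Nr3c1 it was 15 of 52 (28.8%). No share over the genome is set beside these counts, and they were not tested. The promoter signal did not pass in any pair: it was 19.80, 19.51 and 19.20 in C and 17.30, 17.60 and 19.23 in H, with H 3 inside the range of C. The covered share of the locus was 62.9% to 66.9% in C and 40.3% to 47.6% in H, but relative to the mean of all loci in a library the ranges touched, at 3.30 to 4.57 in C and 2.59 to 3.30 in H. By the highest peak of the locus the obese difference over both arms was -0.39 and not called (adjusted p = 0.201), and in H against C it was -0.48 (adjusted p = 0.110). By covered length the H against C difference was -0.45 (adjusted p = 0.135) and that over both arms -0.41 (adjusted p = 0.0303, where 4.07% of loci passed).

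**Figure D2:**
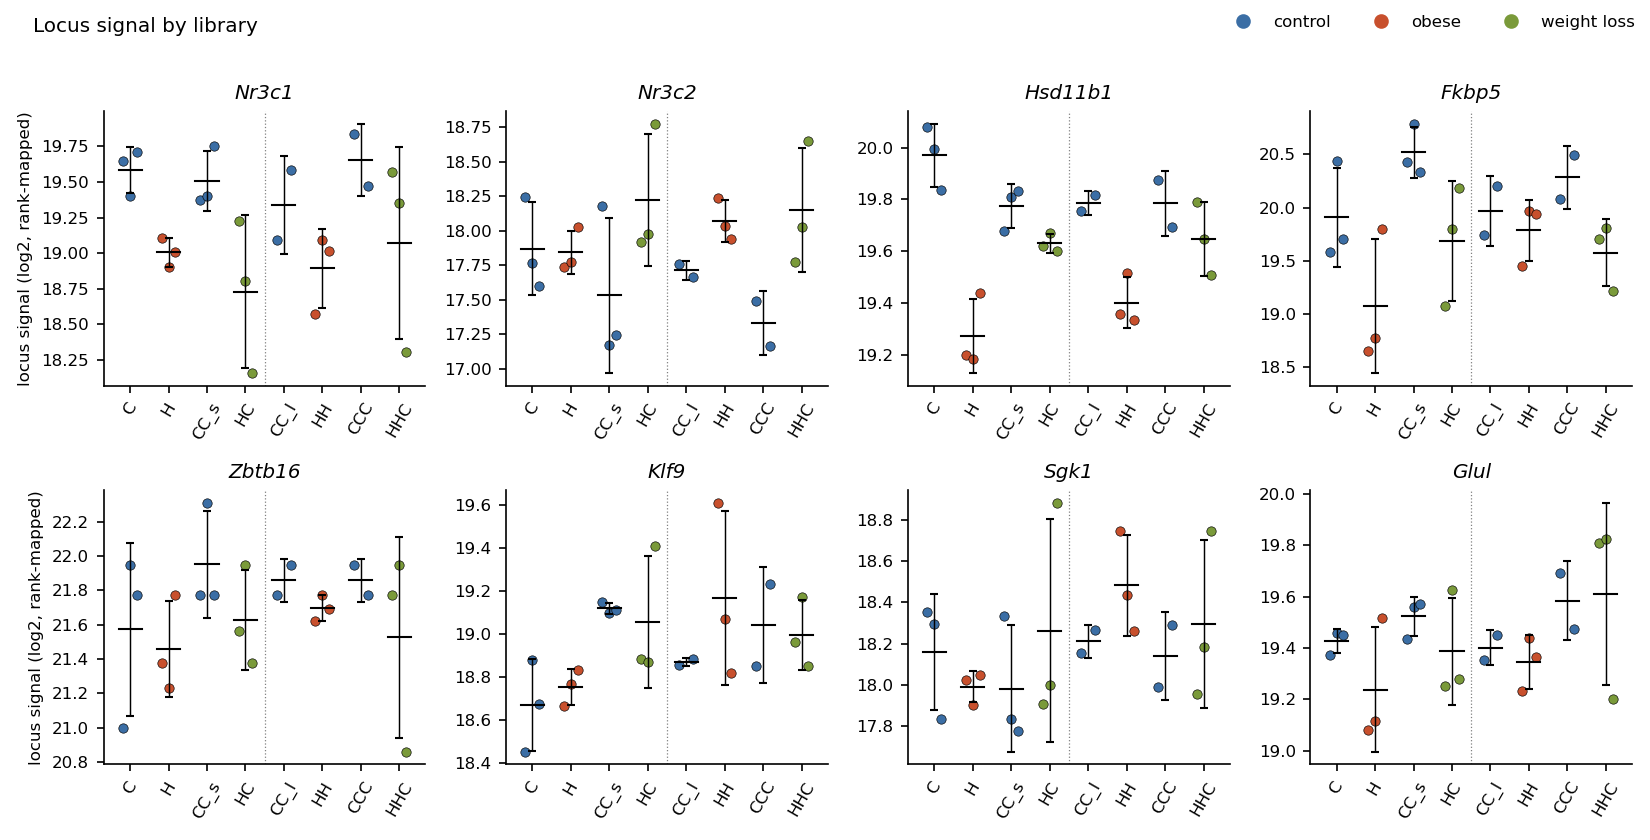
Locus signal (log2 total signal on the common scale) of the 8 genes in each of the 22 libraries by group, with lines and bars for the mean and SD; axes do not start at 0 and differ between panels. Hsd11b1 lies lowest in H (19.18 to 19.44) and HH (19.33 to 19.51), and Nr3c1 has its lowest points in HC 3 and HHC 3.

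Fkbp5, which binds the receptor complex and lowers its affinity for hormone, had the widest range of group means of the 8. Its locus signal was 19.58, 20.44 and 19.71 in C and 18.65, 18.78 and 19.80 in H, where H 3 lay within the range of C. The difference of -0.83 (SE 0.327) did not pass (limma, adjusted p = 0.117), and without H 3 it was -1.20 and passed (adjusted p = 0.0333). HH had 19.45, 19.97 and 19.94 and CC_l 19.74 and 20.20, a difference of -0.19 that was 0.05 without CC_l 2. After weight loss the values were 19.08, 19.80 and 20.19 in HC, all below the 20.43, 20.79 and 20.34 of CC_s, with a difference of -0.83 (SE 0.273, limma adjusted p = 0.37) that was -0.52 without HC 1. They were 19.70, 19.81 and 19.22 in HHC, all below the 20.08 and 20.49 of CCC, with a difference of -0.71 (SE 0.228, limma adjusted p = 0.846). Fkbp5 thus did not overlap its controls in either weight-loss pair, where 10.5% and 14.6% of loci did so as lower. Over both arms the weight-loss difference was -0.77 (SE 0.237, limma adjusted p = 0.08), and -0.80 without HC 3 and HHC 3 (adjusted p = 0.0741). By the highest peak in the locus it was -0.20 (adjusted p = 0.472), and in HC against CC_s -0.12 (adjusted p = 0.886). The weight-loss difference and the obese difference of -0.51 were not distinguishable (limma, -0.26, SE 0.336, adjusted p = 0.768).

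A pair of wide regions made up most of the Fkbp5 locus. The region of 96029 bp over the body and its internal starts (chr17:28393104-28489132), which holds both full response element matches, had 19.83, 20.05 and 19.75 in CC_s and 18.11, 19.12 and 19.16 in HC. Every HC library lay below every CC_s library, as in 13.8% of regions, and the difference of -1.08 (SE 0.272, limma adjusted p = 0.173) was the only one past the unadjusted threshold of p 0.01 and a log2 difference of 1 in any of the 4 pairs, of 19 to 22 regions of these genes tested in a pair. For all regions the share past it was 2.54% in this pair, 8.52% in H against C, 2.68% in HH against CC_l and 0.706% in HHC against CCC. In HHC against CCC the same region differed by -1.07 (SE 0.428, limma adjusted p = 0.797). The region at the gene start (chr17:28499998-28533356) was under peaks in every library. Between them lay an intron region of 8495 bp (chr17:28489790-28498284) with a peak in 7 libraries, all of them controls: 1 of 3 C, 2 of 3 CC_s, 2 of 2 CC_l and 2 of 2 CCC. All 12 obese and weight-loss libraries were at the floor there, so no test is given. The 7 libraries with a peak had 14.08 to 15.36, near that floor. How many of all regions had peaks in controls alone was not counted.

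Zbtb16, a zinc finger repressor strongly induced by glucocorticoids in many tissues, ranked between the 17th and the 57th locus of 21938 by total signal in every library. Its locus signal was 20.998, 21.95 and 21.77 in C, 21.38, 21.23 and 21.77 in H, 21.77, 22.31 and 21.77 in CC_s, and 21.57, 21.95 and 21.38 in HC. In the long arm it was 21.77 and 21.95 in CC_l, 21.62, 21.77 and 21.69 in HH, 21.95 and 21.77 in CCC, and 21.77, 21.95 and 20.86 in HHC. Values repeat because a rank near the top takes 1 of few steps on the common scale. All 4 diet groups overlapped with their controls, and the differences ran from -0.33 to -0.11 with none passing (lowest limma adjusted p = 0.426 in the 4 pairs and 0.3 over both arms). Leaving out single libraries gave -0.40 to 0.08 in H against C and -0.54 to 0 in HHC against CCC. The open stretch was narrowest in HHC 3, with 44.0% under peaks, and HC 3, with 57.2%, against 67.0% to 91.4% in the others. Relative to the coverage of all loci in the same library those 2 had 5.30 and 7.39 times the mean, within or above the 4.02 to 7.24 of the rest. The promoter signal of Zbtb16 differed by -1.36 in H, -1.40 in HC, -0.01 in HH and -2.42 in HHC against their controls, and none passed (limma, lowest adjusted p = 0.538). Over both arms after weight loss it differed by -1.91 (SE 0.910, limma adjusted p = 0.33), at the 0.387th percentile of all promoters. It varied from 17.07 in C 1 to 22.07 in CC_s 2 and CCC 2, and the locus held from 1 to 26 peaks in a library. Since each peak at a start counts whole, this value depends on how the stretch is split into peaks. C 1 had 15 peaks in the locus, and C 3, with a promoter signal of 21.40, had 1.

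Klf9, a Krüppel-like factor induced by the receptor, differed by 0.08 in H against C, 0.30 in HH against CC_l, -0.06 in HC against CC_s and -0.05 in HHC against CCC, and none passed (lowest adjusted p = 0.640). The HH difference was 0.08 without HH 1, and leaving out single libraries turned the sign in the other 3 pairs. Its lowest level was in C, with 18.45, 18.88 and 18.68, and CC_s had 19.15, 19.10 and 19.11. That gap of 0.45 between control groups of different age was without overlap, as higher in 6.1% of loci (SE 0.137, limma adjusted p = 0.712) and larger than any difference of Klf9 between a diet group and its control. A region downstream of Klf9 (chr19:23187487-23194458) differed by 0.84 in H against C (limma, adjusted p = 0.0693).

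Sgk1, a serum- and glucocorticoid-induced kinase that acts on ion transport, had 3 regions with peaks in all 22 libraries and 1 in 21, within a gene of 118 kb. The widest of them, at a start of shorter transcripts and with the response element match (chr10:21989653-22002049), had 17.65, 17.69 and 17.34 in C and 17.27, 17.03 and 17.26 in H, all below C as in 21.3% of regions, a difference of -0.37 (SE 0.146, limma adjusted p = 0.112). In the other pairs this region differed by 0.41 in HC, 0.13 in HH and 0.22 in HHC against their controls, and none passed (lowest limma adjusted p = 0.664). Over the whole locus the differences were -0.17, 0.28, 0.27 and 0.15 in H, HC, HH and HHC against their controls, and none passed (lowest adjusted p = 0.498). Leaving out single libraries gave -0.33 to -0.07 in H, -0.03 to 0.46 in HC, 0.14 to 0.38 in HH and -0.07 to 0.32 in HHC. The sign turned without HC 3 and without HHC 3, where Sgk1 was at 18.89 and 18.75. A small intron region (chr10:21985220-21988874) had peaks in 2 of 3 H and 2 of 3 HH libraries and in none of the other 16. How many of all regions had peaks in obese libraries alone was not counted, and no test is given.

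Glul, which makes glutamine and is a long-known glucocorticoid target, was the steadiest of the 8 in mean level over the groups, from 19.24 ± 0.24 (SD, n = 3) in H to 19.61 ± 0.35 (SD, n = 3) in HHC. The 4 differences from controls were -0.19 in H, -0.14 in HC, -0.05 in HH and 0.03 in HHC, with none passing (lowest adjusted p = 0.334), and leaving out single libraries turned the sign in HH and HHC. A region downstream (chr1:153927945-153937777) had 14.31, 15.50 and 15.58 in C and 14.01, 14.01 and 14.20 in H, where 14.01 is the floor. H lay below C, as in 21.3% of regions, and with 2 H libraries at the floor the size of the difference is set in part by the floor. This region differed by -0.94 in HC, -0.18 in HH and -0.49 in HHC against their controls, and none passed (lowest limma adjusted p = 0.368).

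**Figure D3:**
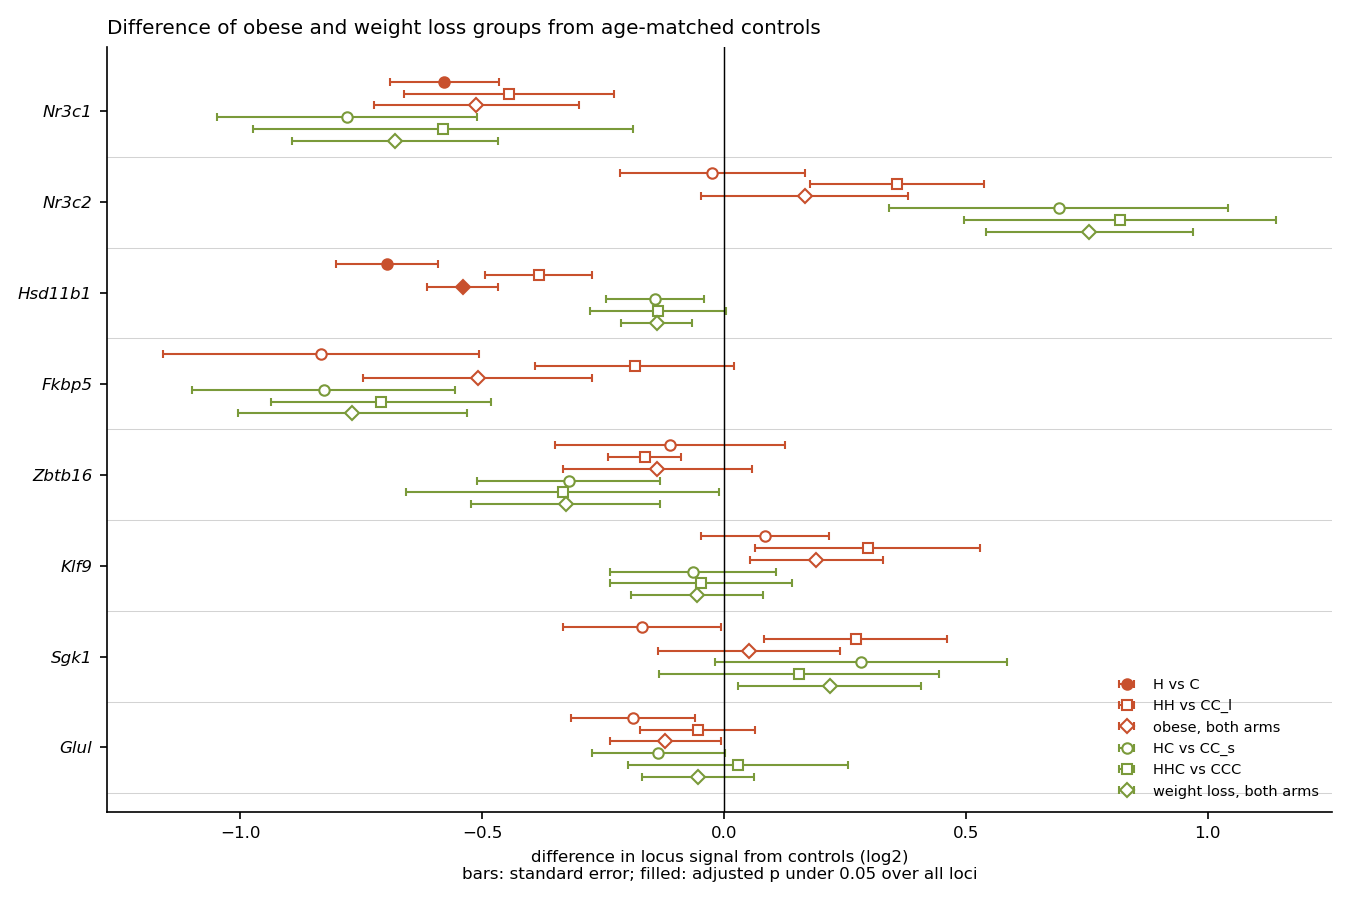
Difference in locus signal (log2) of obese (red) and weight-loss (green) groups from controls of the same age for the 8 genes; bars give the standard error, circles the short arm, squares the long arm, diamonds both arms in 1 fit, and filled symbols an adjusted p under 0.05 over all loci. Filled symbols are seen for Nr3c1 in H against C (-0.58) and for Hsd11b1 in H against C (-0.70) and over both arms (-0.54).

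Promoter signal passed for none of the 8 genes in any of the 4 pairs or over both arms (lowest adjusted p = 0.185), where 2.35% of promoters passed in H against C and 2.29% over both arms in the obese. Shares of 0.0866%, 0.0843% and 0% of promoters passed in the pairs HC, HH and HHC, and 0.211% over both arms after weight loss. The promoter signal of Hsd11b1 differed by -1.46 in H against C, by 0.30 in HC against CC_s, by -0.04 in HH against CC_l and by -1.38 in HHC against CCC. Between control groups of different age it differed by -1.08 in CC_s against C and by 1.33 in CCC against CC_l. The lowest difference of any of the 8 was -2.42, for Zbtb16 in HHC. The median locus difference of the 8 genes was -0.18 in H against C, where that of all loci was -0.02. Ordered by mean, the 8 groups ran from H at 19.27 ± 0.14 (SD, n = 3) to C at 19.97 ± 0.12 (SD, n = 3) for Hsd11b1, with 5 of 7 neighbours overlapping in range. For Klf9 6 of 7 neighbours overlapped and for each of the other 6 genes all 7 did, so their order is not resolved by the spread of the libraries. No difference between the short and the long arm passed for any of the 8 genes (adjusted p = 1 for obese and for weight-loss groups).

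Other genes of the pathway were read as 4 lists by locus signal. In H against C, 1 of 6 genes of ligand supply passed, Serpina6, the corticosteroid-binding globulin, at -0.82, and of 9 receptor chaperones Dnajb1 was lower at -0.56 and Ppid, a cyclophilin, higher at 0.90. Of 9 coregulators Ncoa2 was higher at 0.59, and of 19 further targets 3 were lower. In all 7 of the 43 tested genes passed, 16.3%, where 15.5% of all loci did. Over both arms 4 of 43 (9.30%) passed in the obese, where 10.8% of loci did, and 4 of 44 (9.09%) after weight loss, where 3.18% did. Of 6 genes of ligand supply and clearance none passed in the obese contrast over both arms. After weight loss Hsd11b2, which inactivates the hormone that Hsd11b1 activates, was lower, at -1.11 (SE 0.282, limma adjusted p = 0.0409). Of 9 receptor chaperones 1 passed in the obese, Dnajb1, an Hsp40 chaperone, at -0.53 (limma, adjusted p = 0.00151), and none after weight loss. Of 9 coregulators none passed over both arms in either contrast. Of 20 further glucocorticoid targets, 19 were tested in the obese and 3 passed, all lower: Pik3r1, a regulatory subunit of PI3-kinase, at -1.004, Errfi1, an inhibitor of EGF receptor signalling, at -0.93, and Cdkn1c, a cell cycle inhibitor, at -1.95. After weight loss 3 of 20 passed: Pik3r1 at -1.13 and Cdkn1c at -2.01 were lower, and Pdk4, a kinase that inhibits pyruvate dehydrogenase, was higher at 0.66. The median of these targets was 0.03 in the obese and 0.13 after weight loss, where that of all loci was -0.03 in both.

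By locus signal the control groups of different age gave no call for any of the 8 genes, neither CC_s against C (lowest adjusted p = 0.712) nor CCC against CC_l (lowest adjusted p = 0.491), and 0% of loci passed in either. The largest of these differences in locus signal was 0.61, for Fkbp5 in CC_s against C (limma, adjusted p = 0.723), and by promoter signal it was 1.92, for Zbtb16 in CC_s against C (limma, adjusted p = 0.942). Regions that neither cover a promoter nor are the widest of their gene were singled out above after their values were seen.

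The loci whose signal ran most like that of each gene over the 22 libraries were found by Pearson's r among loci above the floor in all libraries, as a description, since all points share the libraries and their depth. Nr3c1 ran most like Mrps15 (r = 0.92), Abhd5 (0.91) and Syt12 (0.90), and Hsd11b1 most like Neil2 (0.93), Acp5 (0.92) and Dennd2d (0.91). Nr3c2 ran most like Dad1 (0.93), Stxbp5 (0.92) and Kif18a (0.90), Fkbp5 most like Nampt (0.88), Islr2 (0.84) and Gm11444 (0.83), and Zbtb16 most like Ywhag (0.92), Snx4 (0.87) and Mb (0.87). Klf9 ran most like Myo1h (0.83), Arpc3 (0.83) and Igdcc3 (0.82), Sgk1 most like Shkbp1 (0.88), Hscb (0.86) and Mecom (0.86), and Glul most like Rpl27 (0.80), Sun1 (0.79) and Pmf1 (0.79). Among the 8 genes themselves, the 6 pairs with r farthest from 0 were Nr3c2 with Sgk1 (0.75), Nr3c1 with Nr3c2 (-0.73), Zbtb16 with Glul (0.66), Fkbp5 with Zbtb16 (0.66), Nr3c1 with Sgk1 (-0.66) and Nr3c1 with Hsd11b1 (0.62). Without HC 3 and HHC 3, a choice made after the values were seen, these were 0.56, -0.50, 0.62, 0.72, -0.37 and 0.75 in the same order. The loci named above then had r from 0.78 to 0.93.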

How the data were processed

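ATAC-seq peak lists of 22 libraries of adipocyte nuclei were read as deposited. Per the labels and the study's methods, the authors trimmed reads with Trim Galore 0.6.6, aligned them with Bowtie2 2.4.4 to mm10, used SAMtools 1.13 and bedtools 2.30, and called peaks in each library with SEACR 1.3. The deposited signal columns hold each peak's total and highest coverage; no read counts are given, so depth is unknown. Peaks on the mitochondrial genome were set aside. The peaks of all libraries were merged into 104657 regions (overlap of 1 bp). Locus signal is the sum of total signal over a gene (GENCODE vM21, GRCm38) with 20000 bp on each side, a peak counting by its share inside. Promoter signal is the sum over peaks within 2000 bp of a start in the basic set. Each of these peaks counts with its whole total signal, also where it runs far beyond that window. Values were mapped by rank to a common log2 distribution with a floor (13.77 for loci, 14.01 for regions, 14.30 for promoters).

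Groups came from the labels. Each pair was fitted alone with limma 3.58.1 (R 4.3.3, eBayes with trend, Benjamini-Hochberg adjustment over all features), and both arms together for the obese and the weight-loss contrasts; a feature was tested if above the floor in as many libraries as the smaller group. Python 3.11.15 did the rest. The labels call the libraries biological replicates. Tests recovered 200 of 200 changed features, each by a log2 change of 2, on simulated data, with 3 false calls among 23629 regions for H against C and 9 for HH against CC_l. The alternatives were the highest signal, covered length, median scaling, the 20000 strongest peaks, other overlaps, flanks and filters, a fit of all libraries, no trend, a replicate block and leaving out libraries. The members and lists were chosen with earlier results of these data known. Named were the 8 genes, regions over a promoter or widest in a gene, the 3 most alike loci over 1 Mb away, and list genes that passed. Same-numbered libraries of CC_s and C deviated together (r = 0.419, 0.325 and 0.314), so that pair was also fitted with the block: 0 of 8 genes were called (lowest adjusted p = 0.115), and 2 loci in place of 0. Sequences came from the RefSeq assembly of GRCm38.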

Additional observations from a re-analysis of the deposited data

How the results depend on the processing

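Of 808 alternative values of single genes, 797 stayed on the same side of the threshold, 6 lost a call and 5 gained one; no called value changed sign, and 78 uncalled ones did. By the highest signal, the count of genes called in the obese over both arms went from 1 to 0 (Hsd11b1 -0.39), and that of regions past the unadjusted threshold from 0 to 3 in H against C and from 1 to 0 in HC against CC_s. In H against C, median scaling gave 1 region and the replicate block 1; in HC against CC_s, a call only at 50% covered, a fit of all 22 libraries and no trend gave 0 each; in HH against CC_l the 50% rule gave 1 in place of 0. Leaving out single libraries gave 0 to 1 regions in H against C and in HC against CC_s, and 0 to 2 genes called after weight loss: Nr3c2 without CC_s 1 or HHC 1, and Nr3c1 without HC 1 (-0.80, adjusted p = 0.0489) or HHC 1 (-0.80, adjusted p = 0.0368). With the 20000 strongest peaks Nr3c1 in H against C was -0.54 and not called (adjusted p = 0.0995). The causes were not tested.

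Replicate numbers did not pair diet groups with their controls (correlations of same-numbered libraries 0.101, -0.114 and 0.0138 in H and C, -0.0774, 0.00286 and -0.173 in HC and CC_s, 0.0935 and 0.0631 in HH and CC_l, 0.21 and -0.133 in HHC and CCC). With the replicate block Hsd11b1 was -0.51 over both arms in the obese (adjusted p = 0.00271), and Nr3c1 was -0.58 in H against C (adjusted p = 0.0263); it changed no call of a gene. Peak lists hold no reads, so differences in weakly open loci such as Nr3c2 could not be set against counting error.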
